A study of Mus musculus with 12 samples.

Results

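The p53 target genes Cdkn1a, Plk2, Mdm2, Ccng1, Trp53inp1, Btg2, Sesn2, Zmat3, Gadd45a and Gadd45b were followed in mouse liver RNA and in lists of N6-methyladenosine (m6A) peaks. These 10 were chosen by gene symbol as genes that the tumour suppressor p53 is known to activate, and 10 of 10 were found among the 22564 genes of the input table. In the series, male C57BL/6 mice aged 8 weeks that lacked Mettl3 in the liver alone (Mettl3 cKO) were compared with wild-type mice; Mettl3 is the catalytic subunit of the m6A writer. The labels give 12 libraries in 4 groups of 3 (cKO immunoprecipitate, cKO input, wild-type immunoprecipitate and wild-type input). The Cre line, the deleted part of Mettl3 and any pooling of animals are not stated in the labels. Of each genotype, 1 input library and 1 peak list could be tied to it by name, as case and control. Case was read as cKO and control as wild type because the series has just these genotypes; no label states it. Each genotype thus had 1 library, no difference below has a replicate check, and no p-value is given.

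p53 is a transcription factor that is held low in unstressed cells by the ubiquitin ligase Mdm2, itself a p53 target, and is released by DNA damage and other stress. Its targets stop the cell cycle, dampen growth signalling, start repair or apoptosis, and feed back on p53. Many of them, among them Btg2, Gadd45b and Plk2, are also induced within minutes to hours by other signals as immediate early or stress genes. m6A is a methyl mark on adenosines of mRNA, enriched near stop codons and towards the 3′ end, that affects how long a transcript lasts and how well it is translated.

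The upstream sequences of these genes are shown first, to set members that hold a p53 motif near the start site beside members that hold another motif there. In RefSeq promoter windows of the mouse assembly GRCm38.p6, 8 of the 10 genes were matched, with 9 windows, and the 250 bases before each start were searched on both strands. The p53 response element half-site, named here by its usual name, was found before 4 genes, in 4 of the 9 windows, and in 7.13% of all 32851 windows. Those stretches, 5′ to 3′ on the gene's strand with the matches in capitals, read as follows.
Cdkn1a (chr17:29090896-29090947, plus strand): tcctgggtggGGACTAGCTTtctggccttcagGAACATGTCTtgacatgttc
Mdm2 (chr10:117710925-117710954, minus strand): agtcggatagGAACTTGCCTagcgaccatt
Ccng1 (chr11:40755452-40755481, minus strand): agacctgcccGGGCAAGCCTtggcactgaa
Gadd45a (chr6:67037428-67037457, minus strand): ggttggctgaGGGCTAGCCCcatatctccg

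The Cdkn1a window held 2 matches, which began 73 and 51 bases before the start, and the single matches began 186 bases before the start in Mdm2, 185 in Ccng1 and 40 in Gadd45a. For Ccng1 the start of the window is 40755286, which lies within the RefSeq gene that ends at 40755309. The palindrome TGACGTCA, the full cyclic AMP response element, was found before 2 other members, in 2 of the 9 windows, and in 1.55% of all windows. It overlapped no half-site there. These 2 stretches show it in capitals, 166 bases before the start of Btg2 and 62 before that of Plk2.
Btg2 (chr1:134079304-134079331, minus strand): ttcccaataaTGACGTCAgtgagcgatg
Plk2 (chr13:110394972-110394999, plus strand): gcgctcgccgTGACGTCAcgaggccccg

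The sequence TATAAA was found before Gadd45b alone of the matched members, in 1 of the 9 windows, and in 12.4% of all windows. A match describes the letters of a window and shows neither binding nor use of a site. The members were chosen as known p53 targets, so their share of windows with a half-site is not independent evidence.

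The case input held 3564803 fragments and the control input 1737348, recovered from the deposited values. A gene with an equal share of both libraries thus has fewer fragments in the control input, and the fragments of each member are given below. Intervals below are 95% exact intervals that cover counting error only. Levels are FPKM (fragments per kilobase of transcript) as deposited, which can be set against each other between genes of 1 library. They were not brought to equal depth: the total non-mitochondrial signal of the case input was 1.67 times that of the control input. A gene with an equal share of that signal thus reads higher in the case input. Differences are of log2(FPKM + 1), case minus control, and understate the difference of low genes; 1 unit is a 2-fold difference. These values were not scaled to equal totals: over the 9584 genes with a mean of at least 1 FPKM the median difference was 0.41, against -0.19 when the libraries were set to equal non-mitochondrial totals and 0.15 with quantile normalization. Fragment ratios were scaled by what 1 fragment is worth in each library, which does not make the totals equal either. FPKM is estimated per transcript, so its ratio can differ from that of fragments. The libraries stood apart in cells other than hepatocytes: 10 Kupffer cell markers summed to 12.3 FPKM in the case input and 545 FPKM in the control input, and other marker lists are given after the members. Mettl3 itself had 2.91 FPKM (17 fragments) in the case input and 3.44 FPKM (12 fragments) in the control input, a ratio of scaled fragments of 1.21 with an interval of 0.545 to 2.78. Mettl3 in the input thus gives no check of the case label, and directions rest on the names of the libraries.

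Cdkn1a, Plk2 and Gadd45b were lower in the case input, Trp53inp1 was higher, and the other members lay within 2-fold. Of the 10 genes, 9 passed a mean of 1 FPKM, each of them above 1 FPKM in both libraries, and Zmat3 did not. Of these 9, 3 were at least 2-fold lower in the case input, beside 13.2% of all genes, and 1 was at least 2-fold higher, beside 23.6% of all genes. Their median difference was -0.53, which is -0.94 relative to all genes. With equal non-mitochondrial totals 5 were lower and 0 higher, beside 21.9% and 7.67% of all genes; with quantile normalization 4 were lower and 0 higher, beside 16% and 14.1%; and centred on the median of all genes 3 were lower and 0 higher, beside 18.4% and 11.6%. A pseudocount of 0.1, the deposited count-like values and no filter each gave 3 lower and 1 higher. All genes had shares of 16.4% lower and 31.6% higher with that pseudocount, 15.9% and 31.1% with the count-like values, and 6.81% and 10.3% with no filter. The members were chosen with earlier results of these libraries known, so these counts describe them and are not independent evidence.

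**Figure D1:**
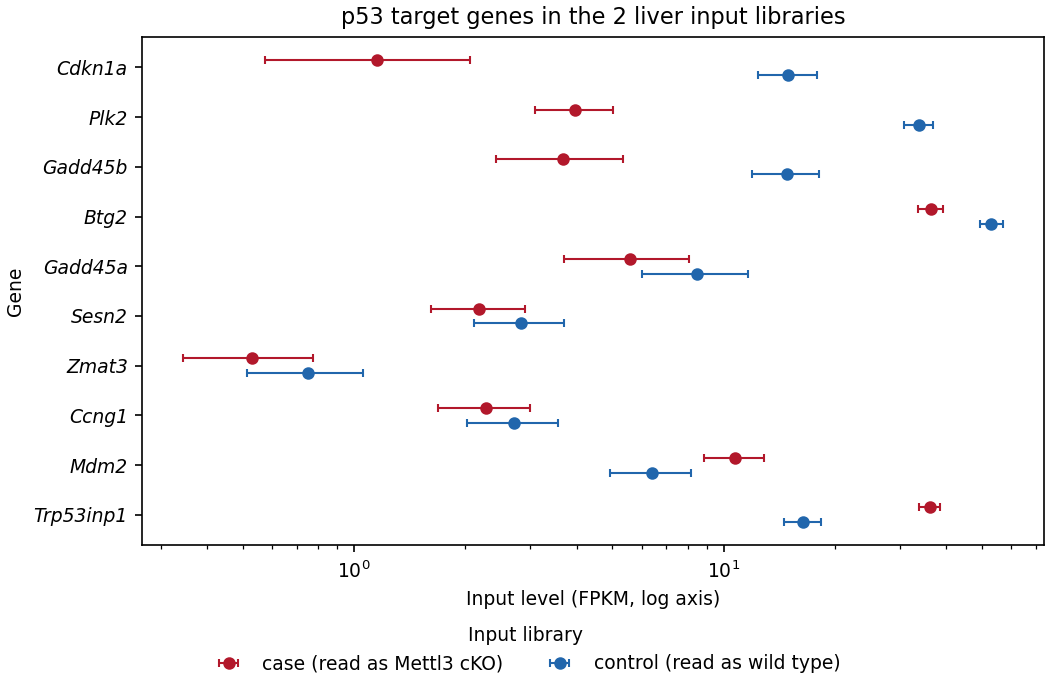
Input level of each p53 target gene on a logarithmic FPKM axis, with the case library above the control library of each gene. Bars are 95% counting intervals scaled to FPKM, and there is 1 library per genotype; the bars of both libraries are apart for Cdkn1a, Plk2, Gadd45b, Btg2, Mdm2 and Trp53inp1 and overlap for Gadd45a, Sesn2, Zmat3 and Ccng1.

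Among the genes that halt the cell cycle, Cdkn1a stood lowest in the case input relative to the control. Cdkn1a (ENSMUSG00000023067, chr17:29090923-29100722, plus strand, mm10) encodes p21, an inhibitor of cyclin-dependent kinases. It had 1.15 FPKM in the case input, with 11 fragments (5.49 to 19.7), and 14.95 FPKM in the control input, with 117 fragments (96.8 to 140). The ratio of scaled fragments was 0.0803 (0.0390 to 0.149) and the difference was -2.89; only 100 of the 9584 genes, or 1.04%, lay lower. In rank among the 10 members, Cdkn1a was the ninth of the case input and the fourth of the control input, where its interval overlapped those of its neighbours Trp53inp1 and Gadd45b.

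Btg2, which binds the CCR4-NOT deadenylase and restrains proliferation, was the member of highest level in the control input, and shared the first place in the case input with Trp53inp1, whose interval overlapped its own. Btg2 (chr1:134075170-134079120, minus strand) had 36.3 FPKM (618 fragments) in the case input and 53.1 FPKM (770 fragments) in the control input. Its difference of -0.53 stayed within 2-fold, with a fragment ratio of 0.686 (0.616 to 0.763). Since it has many fragments, its interval excludes equality on the deposited scale, yet the size depends on scaling: the difference was -1.25 with equal non-mitochondrial totals and -1.44 with quantile normalization, both past 2-fold.

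Of the stress-induced GADD45 proteins, which bind kinases and cell cycle regulators, Gadd45b was past 2-fold and Gadd45a was not. Gadd45b (chr10:80930091-80932204, plus strand) had 3.67 FPKM (27 fragments) in the case input and 14.8 FPKM (93 fragments) in the control input. This gave a difference of -1.76 and a ratio of 0.248 (0.155 to 0.384). Gadd45a had 5.58 FPKM (28 fragments) in the case input and 8.48 FPKM (38 fragments) in the control input, a difference of -0.53 with a ratio of 0.629 (0.372 to 1.05). The interval of Gadd45a includes 1, so no difference was detectable at this depth on the deposited scale; with equal non-mitochondrial totals it was -1.17. The locus deposited for Gadd45a (chr6:67035096-67080654) runs far beyond the RefSeq gene (67035096 to 67037407) and over the noncoding gene E230016M11Rik, whose RefSeq span overlaps the start of Gadd45a; fragments of the overlap may be assigned to either.

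Plk2, a polo-like kinase of centriole duplication and the stress response, had a difference close to that of Cdkn1a, with an overlapping interval. Plk2 (ENSMUSG00000021701, chr13:110395044-110400844, plus strand) had 3.97 FPKM in the case input, with 69 fragments (53.7 to 87.3), and 33.7 FPKM in the control input, with 500 fragments (457 to 546). The ratio was 0.118 (0.0903 to 0.152) and the difference -2.80, with 128 genes, or 1.34%, lower. Plk2 had the next level after Btg2 in the control input and stood between Gadd45a and Gadd45b in the case input, where the intervals of both overlapped its own.

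Of the members that feed back on p53, Mdm2 and Trp53inp1 were higher in the case input on the deposited scale. No difference was detectable for Ccng1 on that scale. Mdm2 (chr10:117688888-117710758, minus strand) had 10.7 FPKM (113 fragments) in the case input and 6.40 FPKM (65 fragments) in the control input, a difference of 0.66 and a ratio of 1.48 (1.08 to 2.05). Its difference was 0.0041 with equal non-mitochondrial totals and 0.23 with quantile normalization. Ccng1, a cyclin that brings a phosphatase to Mdm2, had 2.27 FPKM (50 fragments) in the case input and 2.71 FPKM (51 fragments) in the control input, with a ratio of 0.837 (0.555 to 1.26). Trp53inp1, a nuclear and autophagy protein that promotes p53 activity, was the 1 member at least 2-fold higher. Trp53inp1 (chr4:11156431-11174379, plus strand) had 36.1 FPKM (867 fragments) in the case input and 16.4 FPKM (289 fragments) in the control input, a difference of 1.10 and a ratio of 2.56 (2.24 to 2.94). Its difference was 0.39 with equal totals and 0.34 with quantile normalization, both within 2-fold, and on the deposited scale 20.1% of all genes lay higher.

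Sesn2, a leucine sensor that restrains mTORC1, and Zmat3, an RNA-binding zinc finger protein, were low in both libraries. Sesn2 (chr4:132488822-132510501, minus strand) had 2.18 FPKM in the case input and 2.82 FPKM in the control input, from 47.6 and 52.5 recovered fragments, which were the only member values that were not whole. Its ratio, from the counts rounded to 48 and 53, was 0.774 (0.512 to 1.17). Zmat3 had 0.529 FPKM (26 fragments) in the case input and 0.750 FPKM (32 fragments) in the control input, with a ratio of 0.694 (0.397 to 1.20). On the deposited scale no difference was detectable for Sesn2, Zmat3 or Ccng1 at this depth, and Zmat3 was the lowest member of both libraries. With equal non-mitochondrial totals the differences were -0.79 for Sesn2, -0.48 for Zmat3 and -0.71 for Ccng1. The sign of Zmat3 flipped under quantile normalization, to 0.072.

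**Figure D2:**
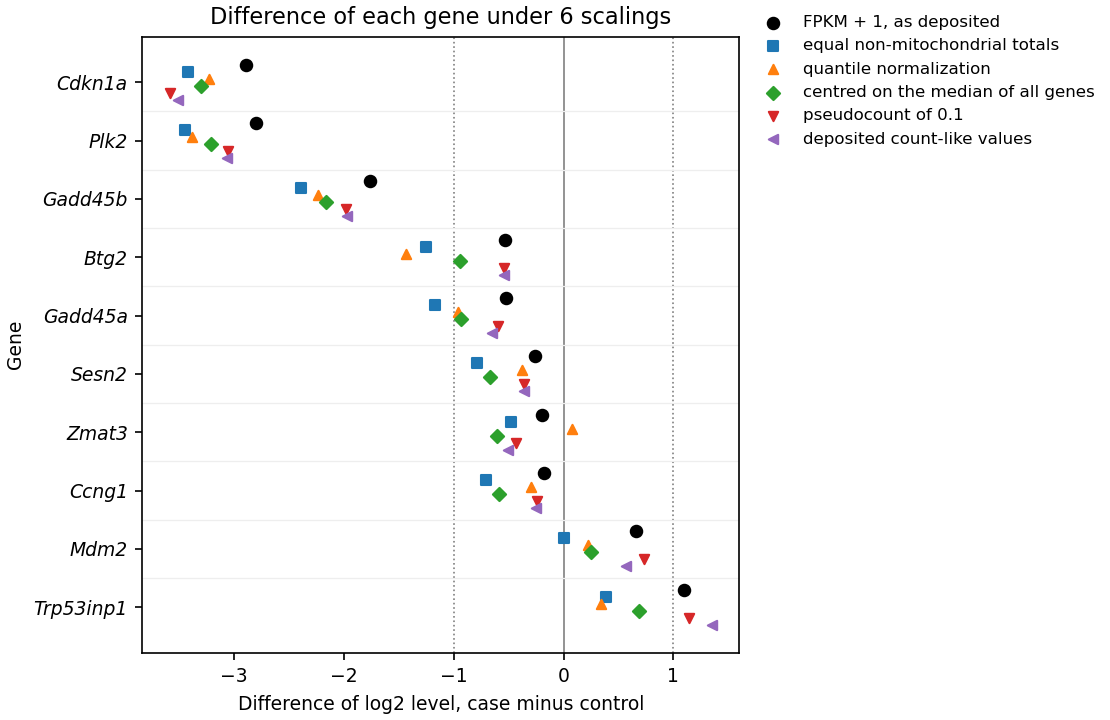
Difference of log2 level, case minus control, of each p53 target gene under 6 settings, with dotted lines at a 2-fold difference. Cdkn1a, Plk2 and Gadd45b stayed past 2-fold under all 6, whereas Trp53inp1 did so under 3, Btg2 moved past 2-fold under 2 and Gadd45a under 1.

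In the wider p53 pathway, 0 of the measured regulators passed a difference of 1 on the log2(FPKM + 1) scale. p53 itself (Trp53) had 4.18 FPKM (53 fragments) in the case input and 3.36 FPKM (27 fragments) in the control input, a difference of 0.25 that was -0.33 with equal totals and -0.16 centred on the median of all genes. Of 8 measured regulators and damage kinases, 0 were lower and 0 higher by that measure, beside 13.2% and 23.6% of all genes. Their median was -0.15. With equal totals 2 were lower, beside 21.9% of all genes. With a pseudocount of 0.1 or with centring on the median of all genes 1 was lower, beside 16.4% and 18.4%. The ubiquitin protease Usp7 had 13.9 FPKM in the case input and 9.47 FPKM in the control input, a difference of 0.51 that was -0.17 with equal totals and -0.059 with quantile normalization. The phosphatase Ppm1d, which is also a p53 target, had 0.610 FPKM in the case input and 1.52 FPKM in the control input; its difference of -0.64 is damped by the pseudocount of 1, since both levels are low.

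Of 9 measured targets of apoptosis, 2 were past 2-fold towards the control input and 2 towards the case input, with a median of -0.17. Of all genes, 13.2% and 23.6% were so. Pmaip1, the BH3-only protein NOXA, had 0.611 FPKM (10 fragments) in the case input and 8.87 FPKM (124 fragments) in the control input, a difference of -2.62. Apaf1, the core of the apoptosome, had 1.38 FPKM in the case input and 4.50 FPKM in the control input. The 2 higher genes were Ei24, an ER membrane protein, with 31.4 FPKM in the case input and 10.3 FPKM in the control input, and Perp, a membrane protein of desmosomes, with 14.9 FPKM in the case input and 5.40 FPKM in the control input. With equal totals, 3 of the list were lower and 0 higher, beside 21.9% and 7.67% of all genes.

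Of 15 measured targets with roles in repair, metabolism and other processes, 5 were past 2-fold towards the case input and 0 towards the control input. Of all genes, 23.6% and 13.2% were so. The median of the list was 0.46, close to the 0.41 of all genes. Gls2, the liver glutaminase, had 84.1 FPKM in the case input and 18.2 FPKM in the control input, and Pank1, which starts coenzyme A synthesis, had 25.7 FPKM in the case input and 6.32 FPKM in the control input. Sco2, an assembly factor of cytochrome c oxidase, had 17.9 FPKM in the case input and 5.24 FPKM in the control input. With equal totals 2 were higher and 1 lower, beside 7.67% and 21.9% of all genes.

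Paralogues of the members differed in both directions. Gadd45g had 65.4 FPKM in the case input and 26.5 FPKM in the control input, a difference of 1.27, beside the lower Gadd45b. The difference of Gadd45g was 0.55 with equal totals and 0.43 with quantile normalization, both within 2-fold. Plk3 had 33.1 FPKM in the case input and 14.0 FPKM in the control input, a difference of 1.18, beside the lower Plk2. That of Plk3 was 0.48 in each of these settings, also within 2-fold. Trp53inp2 had 43.8 FPKM in the case input and 9.45 FPKM in the control input, the same direction as Trp53inp1. Its difference stayed past 2-fold, at 1.40 with equal totals and 1.43 with quantile normalization. Btg1 had 8.02 FPKM in the case input and 30.6 FPKM in the control input, a difference of -1.81 that was -2.49 with equal totals. Of the 11 measured paralogues 4 were 2-fold higher and 2 lower, beside 23.6% and 13.2% of all genes. With equal totals 1 was higher and 2 lower, beside 7.67% and 21.9%. Their median difference was 0.29, against 0.41 for all genes.

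Immediate early genes and markers of other liver cells were lower too, and their part in the values of the members was not tested. Of 18 immediate early and early stress genes, 13 were at least 2-fold lower in the case input and 0 higher, with a median of -1.47. Of all genes, 13.2% were at least 2-fold lower and 23.6% higher. The transcription factor Klf2 had 6.37 FPKM in the case input and 61.3 FPKM in the control input, and Klf6 had 1.99 FPKM in the case input and 21.2 FPKM in the control input. With quantile normalization 18 of the 18 immediate early genes were lower, beside 16% of all genes. Of the Kupffer cell markers 10 of 10 were 2-fold lower, with a median of -4.70; Csf1r, the receptor for macrophage growth factor, had 0.0012 FPKM in the case input and 37.5 FPKM in the control input. The 10 endothelial markers summed to 31.3 FPKM in the case input and 305 FPKM in the control input, and 10 of 10 were lower. The 10 stellate cell markers summed to 13.7 FPKM in the case input and 131 FPKM in the control input, and 8 of 10 were at least 2-fold lower when no filter was set. The 10 lymphoid markers summed to 2.87 FPKM in the case input, where Cd3d, Cd3e, Cd79b and Klrb1c were listed at 0. They summed to 33.6 FPKM in the control input, where none was at 0. With no filter 4 of the 10 were at least 2-fold lower and 6 were within 2-fold. Of all genes with no filter, 6.81% were at least 2-fold lower. Hepatocyte markers were present in both libraries, with sums of 27906 FPKM in the case input and 13643 FPKM in the control input. Past 2-fold towards the case input were 8 of 10, or 5 with equal totals and 4 with quantile normalization. Of all genes, 23.6% were so, or 7.67% and 14.1% in those settings. In bulk RNA, fewer cells of a type and less RNA per cell cannot be told apart.

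**Figure D3:**
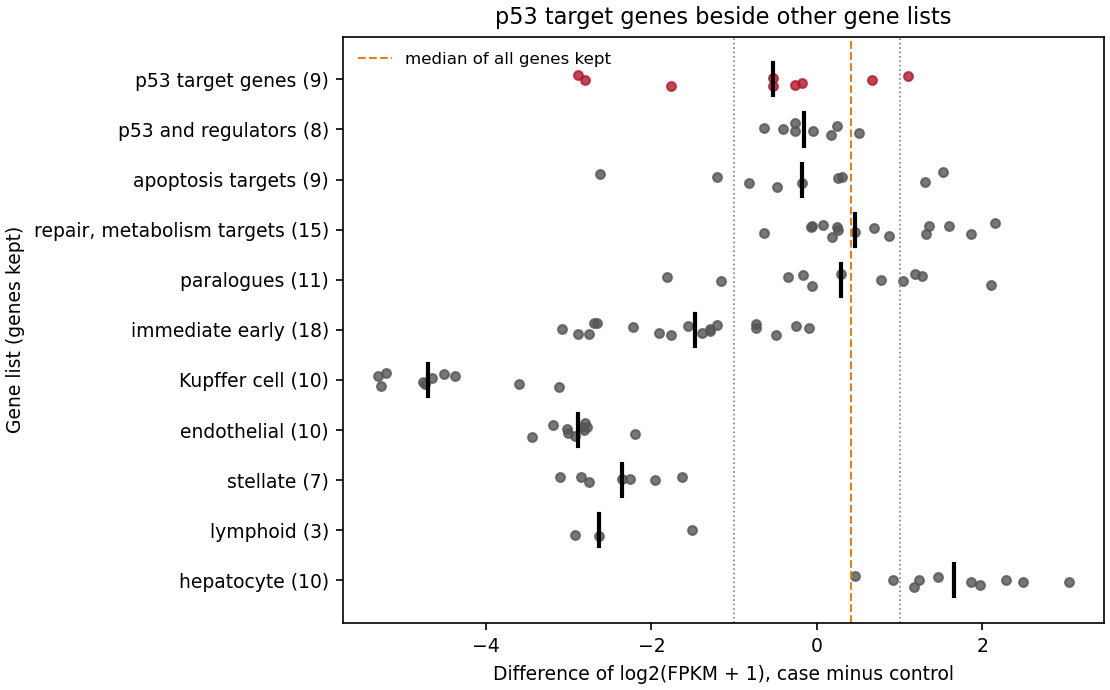
Difference of log2(FPKM + 1), case minus control, of each gene above the filter, by gene list, with the list's median as a black bar, the median of all genes as a dashed line and 2-fold as dotted lines. The p53 target genes run from -2.89 to 1.10 with a median of -0.53. Medians are -1.47 for the immediate early list and 0.46 for the repair and metabolism targets. The plotted markers of Kupffer, endothelial, stellate and lymphoid cells lie below -1. Only 7 of 10 stellate and 3 of 10 lymphoid markers passed the filter, some through the control library alone, so the filter itself favours low values there. With no filter, 8 of 10 stellate and 4 of 10 lymphoid markers were at least 2-fold lower.

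The IP lists show where m6A peaks were called in these genes. Fold enrichment over background and false discovery rate are the authors' values for each peak, and are used within a list. The case list assigned 12 of its 17277 peaks to 7 of the 10 members, and the control list 10 of its 17175 peaks to 6 of the 10. Of all 9584 genes, 65.4% had a case-list peak and 65.6% a control-list peak, so the members' shares lie near those of all genes. Gadd45a, Gadd45b, Mdm2, Plk2 and Sesn2 had peaks in both lists, Btg2 and Ccng1 in the case list alone, Trp53inp1 in the control list alone, and Cdkn1a and Zmat3 in neither. Of all genes, 49.2% had peaks in both lists, 16.2% in the case list alone, 16.4% in the control list alone and 18.2% in neither.

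The false discovery rates of the case list were higher than those of the control list, reaching 25.92% in the case list and 7.52% in the control list. With the rate held to 15%, 5 case-list peaks of members were lost, namely both peaks of Mdm2, the peak of Gadd45a and 2 of the 4 peaks of Plk2, so that Mdm2 and Gadd45a had no case-list peak. That left 5 members with a case-list peak, beside 56.6% of all genes, and 6 with a control-list peak, beside 65.6%. Among the 5000 peaks of highest fold in each list, 5 members had a case-list peak and 1 a control-list peak, beside 27.4% and 31% of all genes.

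Each of the 5 genes with peaks in both full lists had at least 1 overlapping pair. With the false discovery rate held to 15%, the overlapping case-list peaks of Gadd45a, Mdm2 and Plk2 were lost. Those of Gadd45b and Sesn2 remained. The counts that follow are of the full lists. Of the 12 case-list peaks of the members 6 were overlapped by a control-list peak, and of the 10 control-list peaks 6 by a case-list peak, beside 35.3% and 35.5% of all peaks of those lists. Peaks of 1 gene are not independent. At Mdm2 the peak chr10:117692582-117692737 had identical ends in both lists, with a fold enrichment of 10 in the case list and 228 in the control list. A second Mdm2 peak covered chr10:117690221-117690785 in the case list, with a fold of 23.2, and chr10:117690243-117690785 in the control list, with a fold of 111. Another, chr10:117689424-117689716, was called in the control list alone, with a fold of 15.3.

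Gadd45a carried 1 peak in each list near its 3′ end. It covered chr6:67035226-67035656 in the case list, with a fold of 96.5, and chr6:67035241-67035711 in the control list, with a fold of 46.3; 416 bases were shared. Gadd45b likewise had 1 peak in each list, at chr10:80931647-80932093 in the case list with a fold of 29.0 and at chr10:80931679-80932037 in the control list with a fold of 4.04. The control-list peak of Gadd45b was among the weakest of its list, at the 1.48th percentile of fold enrichment, and its counterpart stood at the 73.7th percentile of the case list. The lists differ in their overall folds, with medians of 14.9 in the case list and 28.5 in the control list, so a fold is not compared between them.

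Plk2 had the most peaks in the case list. The peak at its 3′ end covered chr13:110400033-110400844 in the case list, with a fold of 300.2 at the 99.6th percentile of that list and a false discovery rate of 17.94%, and chr13:110400156-110400778 in the control list, with a fold of 4.67 at the 2.74th percentile. The case list held 3 more, at chr13:110395044-110395289, which begins at the first base of the RefSeq gene, at chr13:110395793-110395992 and at chr13:110397471-110397528. Their folds were 14.7, 5.13 and 79.3. The input held 69 fragments of Plk2 in the case library and 500 in the control library.

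Sesn2 had an overlapping pair, chr4:132493334-132493685 in the case list with a fold of 23.7 and chr4:132493328-132493673 in the control list with a fold of 33.7. A further case-list peak, chr4:132492647-132492988, had a fold of 33.6 and straddled the RefSeq 3′ end at 132492804. Btg2 had 1 case-list peak, chr1:134075204-134075573, with a fold of 5.13, and Ccng1 had 1, chr11:40752114-40752357, with a fold of 61.8. Trp53inp1 had 3 control-list peaks, at chr4:11164363-11164562, chr4:11171615-11171961 and chr4:11173794-11174137, with folds of 6.74, 9.65 and 32.2.

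**Figure D4:**
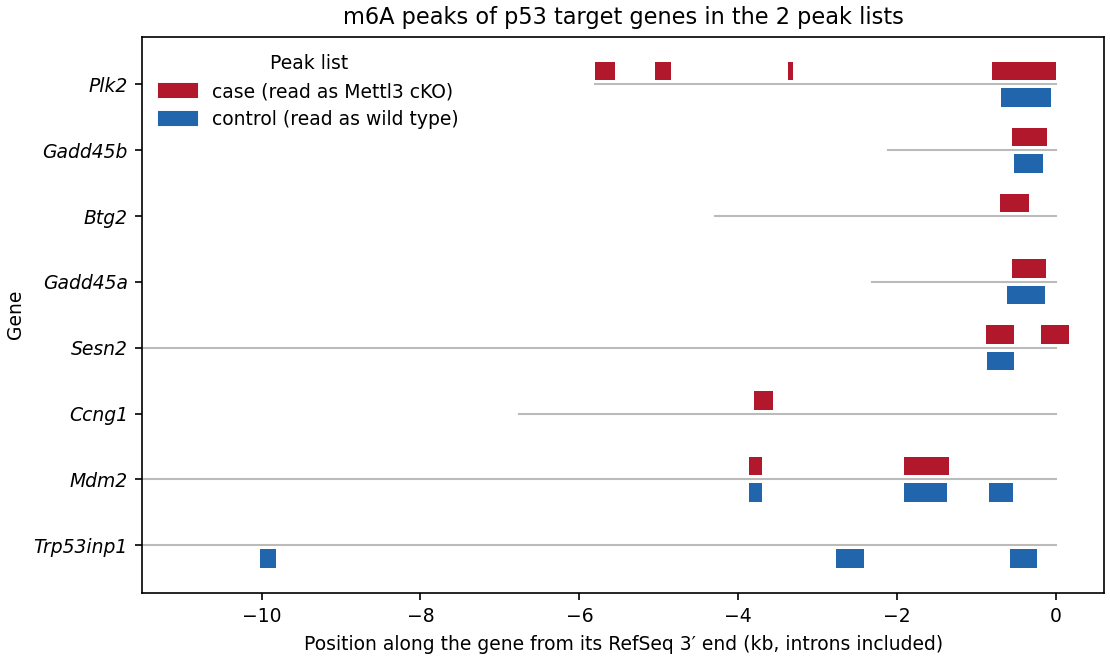
Peaks of the 8 p53 target genes that have any, as boxes at their distance from the RefSeq 3′ end in kilobases with introns included; the case list is above and the control list below each gene's line, which is cut at the left edge for longer genes. Overlapping boxes are seen in Plk2, Gadd45b, Gadd45a, Sesn2 and Mdm2, most of them within 1 kilobase of the 3′ end, whereas Trp53inp1 has boxes of the control list alone.

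A part of the members' peaks lay near the 3′ ends of the genes. The centre lay within 1000 bases of the RefSeq 3′ end for 6 of the 12 case-list peaks and 6 of the 10 control-list peaks, beside 13.9% and 15.4% of all peaks that could be placed in a gene. These distances include introns, and short genes place peaks near an end. Gadd45a and Gadd45b span only 2312 and 2114 bases, and Btg2 and Plk2 4291 and 5801. How far gene length sets these shares was not tested. Exons, coding sequence and untranslated parts were not assigned, and the sequence under the peaks was not used here.

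Peak numbers were set beside input levels. In 6 of the 6 members with unequal peak numbers, the list with more peaks was that of the library with the lower FPKM: the case list for Plk2, Sesn2, Btg2 and Ccng1, and the control list for Trp53inp1 and Mdm2. Among all genes with unequal numbers this was so for 68.6%. These counts rest on FPKM as deposited. On that scale no difference in input was detectable for Sesn2 and Ccng1, so which library was lower is not known for them there. For Btg2 and Mdm2 the deposited levels were within 2-fold. With equal non-mitochondrial totals the differences were -0.79 for Sesn2, -0.71 for Ccng1, -1.25 for Btg2 and 0.0041 for Mdm2. The marker lists, of 10 genes each, had unequal numbers of genes with a peak too. In the case and control lists these were 8 and 1 for Kupffer, 9 and 3 for endothelial and 9 and 4 for stellate markers. For lymphoid markers they were 4 and 0, and for hepatocyte markers 4 and 10. Whether input level bears on the number of peaks called in the members was not tested. Cdkn1a, with 11 fragments in the case input and 117 in the control input, had 0 peaks in both lists.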

How the data were processed

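The members and gene lists were chosen with earlier results of these data known. Input levels are FPKM as deposited by the authors; cutadapt 1.9.3, HISAT2 2.0.4, Cuffdiff, Cufflinks and mm10 are named, without roles or order, per the submitters' processing notes. The signal that the authors deposited under a heading of counts is not whole. It was divided by the value of 1 fragment in each library, after which 91.7% of the case and 92.6% of the control values above 0 were whole within 0.02. Per the file headers, peaks have a score (10 times the negative log10 of the p-value), a fold enrichment ratio and a false discovery rate in percent; peak names begin with MACS, and its settings are not stated. The 13 mitochondrial genes were set aside, since the case input listed 0 of them at 0 FPKM and the control input 8. The planned limma fit was not possible with 1 library a genotype. Ratios have exact Clopper-Pearson and counts exact Poisson intervals; PCR copies are not independent molecules. Scripts were tested on simulated data. Starts in the files count from 0 and were raised by 1. All 10 members were named, and of each other list up to 4 genes of largest difference, besides Trp53. Likeness across libraries was not measured with 2 libraries. Of 11 lists, 3 genes were found under an older symbol. For a symbol listed on more than 1 row the highest row was used. No label matches the library numbers of 8 further value columns and 4 peak lists, which were not used. Python 3.11.15, NumPy 2.4.6, SciPy 1.17.1 and pandas 2.3.3 were used.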

Additional observations from a re-analysis of the deposited data

How the results depend on the processing

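With equal non-mitochondrial totals 5 members were at least 2-fold lower and 0 higher, with a median of -1.17. With quantile normalization 4 were lower and 0 higher, and with centring on the median of all genes 3 and 0. The median was -0.96 and -0.94 in these 2 settings. With a pseudocount of 0.1, the deposited count-like values or no filter, 3 were lower and 1 higher. The shares of all genes in these settings stand beside the members' counts above. Of 50 values of single members under 5 alternatives, 11 moved by more than their counting interval allows on either side and 0 of those past 2-fold changed sign. Among the 5000 peaks of highest fold in each list, the members kept 6 case-list peaks in 5 genes and 2 control-list peaks in 1 gene. Of all genes, 27.4% had a case-list and 31% a control-list peak among these. With the false discovery rate held to 15% the members had 7 case-list peaks in 5 genes and 10 control-list peaks in 6, beside 56.6% and 65.6% of all genes with such a peak. The control list could lose none to that rate, since its rates reached only 7.52%. A minimum fold of 4 could remove no peak of the members, whose lowest folds were 5.13 in the case list and 4.04 in the control list. A required overlap of 50% of the shorter peak did not change the 6 overlaps in each list. The rate of 15% did remove the overlapping case-list peaks of Gadd45a, Mdm2 and Plk2. No paired analysis was possible because each genotype had 1 library, and for the same reason no library could be left out. Depth limits Cdkn1a, at 11 fragments in the case input, and Zmat3.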
